A study of Mus musculus with 18 samples.

Results

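Immediate early genes and heat shock genes are the genes a cell switches on fastest after a stimulus or a stress, and 38 of them were followed here in the atria of mice labelled WT, Het or KO for Zfhx3. The 38 genes were listed by symbol, 26 as immediate early and 12 as heat shock genes, and each was found once, by its Ensembl base ID, among the 56691 gene IDs of the deposited count table. All 38 passed the filter on low counts in every comparison. Zfhx3 encodes a large transcription factor with zinc fingers and homeodomains, and variants near the human gene are associated with atrial fibrillation. Messenger RNA of the left atrium (LA) and of the right atrium (RA) was sequenced from 9 animals, 3 per genotype label, giving 18 libraries in 6 groups. The labels call the cell type cardiac and give the treatment as not applicable. They state no allele, Cre driver, strain, age, sex or batch, so what WT, Het and KO mean beyond those names is not known here. The columns of WT RA replicates 1 and 2 were identical for every gene and were counted as 1 library, which left 17 libraries, n = 2 for WT RA and n = 3 for each of the other groups.

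Immediate early genes are transcribed within minutes of a growth factor, a hormone, stretch or electrical activity, without new protein being made first. Kinase cascades act on factors already bound at their promoters, such as serum response factor at the CArG box and CREB at the cyclic AMP response element, and many of the products (Fos, Jun, Egr and Nr4a proteins) are themselves transcription factors or brakes on the same cascades. Heat shock genes encode chaperones that fold, hold or disassemble proteins, and their induced transcription runs through heat shock factor 1, which binds repeats of a short heat shock element. In heart muscle, both groups are known to respond quickly to load, to ischaemia and to handling of the tissue.

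Promoter sequence was available from RefSeq (GRCm38.p6) for 30 of the 38 genes and was searched over the 250 bases upstream of each listed start site, on both strands, a gene counting where any of its start sites had a match. The heat shock element was searched as GAANNTTC or TTCNNGAA, and 7 of 9 heat shock promoters held it (Hspa1a, Hspa1b, Hspb1, Hsph1, Hspd1, Hspe1 and Dnaja1), against 3 of 21 immediate early promoters and 14.5% of 27025 genes. The longer form with 3 units, which contains the shorter one, was found in 2 of 9 heat shock promoters, Hspd1 and Hspe1, and in 0.514% of all genes. Hspd1 and Hspe1 hold the same stretch, read from opposite strands. Hspa1a and Hspa1b hold the same match at the same distance from the start site. The counts for heat shock promoters therefore include promoters that are not separate cases. TGACGT, the core of the cyclic AMP response element, was found in 7 of 21 immediate early promoters (Btg2, Atf3, Nr4a3, Egr2, Fos, Maff and Dusp1), in 0 of 9 heat shock promoters and in 7.29% of all genes. The CArG box was found in 2 of 21 immediate early promoters, Egr2 and Zfp36, against 1.62% of all genes. A match is a run of letters in this window and no measured binding site. The sequences below show both kinds of promoter, each from the gene's own strand, with the matched motifs in capitals. Fos (chr12:85473690-85473889, plus strand) carries TGACGT and the TATA box, and Btg2 (chr1:134079156-134079355, minus strand) carries the full cyclic AMP response element. Hspa1b (chr17:34959239-34959438, minus strand) and Hspb1 (chr5:135887719-135887918, plus strand) carry the heat shock element. The last sequence (chr1:55088053-55088082, plus strand) lies upstream of the RefSeq start site of Hspe1 and of 1 of the 2 RefSeq start sites of Hspd1 on the opposite strand, and carries the form with 3 units. In GENCODE M21 it falls inside the Hspd1 gene.
Fos: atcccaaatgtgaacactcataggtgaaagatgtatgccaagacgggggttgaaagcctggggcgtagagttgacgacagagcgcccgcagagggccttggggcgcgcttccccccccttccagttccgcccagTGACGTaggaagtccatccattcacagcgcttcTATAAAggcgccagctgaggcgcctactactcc
Btg2: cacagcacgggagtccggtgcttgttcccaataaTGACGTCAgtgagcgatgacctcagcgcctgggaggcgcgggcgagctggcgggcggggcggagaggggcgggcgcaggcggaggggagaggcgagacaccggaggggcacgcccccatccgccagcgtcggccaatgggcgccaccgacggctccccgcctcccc
Hspa1b: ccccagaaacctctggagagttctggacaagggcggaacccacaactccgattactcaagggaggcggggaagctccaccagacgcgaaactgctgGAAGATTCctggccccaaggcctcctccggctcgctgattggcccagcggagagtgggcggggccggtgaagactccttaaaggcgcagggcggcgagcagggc
Hspb1: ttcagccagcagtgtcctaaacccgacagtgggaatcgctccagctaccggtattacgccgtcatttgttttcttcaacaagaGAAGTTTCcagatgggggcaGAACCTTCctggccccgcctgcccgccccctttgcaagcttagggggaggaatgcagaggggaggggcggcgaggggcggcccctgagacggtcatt
Hspe1 and Hspd1: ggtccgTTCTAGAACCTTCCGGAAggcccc

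Depth ran from 18000583 counts (WT LA replicate 3) to 33483085 (KO LA replicate 3), and levels are given as CPM, a gene's counts scaled to a common library total after TMM normalisation. Zfhx3 itself was between 13.9 and 20.4 CPM in every library and did not differ in any comparison (edgeR adjusted p 0.307 or higher), so the libraries labelled KO were not lower in Zfhx3 reads. Counts over a whole gene do not show the loss of a part of it, and the labels do not say which part was altered, so this does not check them. Xist was at 576 to 706 CPM in all Het libraries and at 697 and 767 CPM in both libraries of KO animal 1. It was at 0.403 to 1.1 CPM in all WT libraries and those of KO animals 2 and 3. Ddx3y of the Y chromosome went the other way, at 0 in the libraries with high Xist and at 109 to 176 CPM in the others. High Xist without Ddx3y is the female pattern, so all Het animals and KO animal 1 read as female and the others as male. Het against WT thus sets female against male animals, and KO is mixed. For Het against WT, the genotype label and whatever goes with high Xist cannot be told apart. Cardiomyocyte markers (10 of 10 detected) summed to 59800 to 70900 CPM in WT LA, 53300 to 56400 in Het LA, 55000 to 59500 in KO LA, 53100 to 56500 in WT RA, 45800 to 47700 in Het RA and 46700 to 50700 in KO RA. Markers of fibroblasts (9 of 9 detected) summed to 908 to 2350 CPM in WT LA, 2330 to 3110 in Het LA and 1960 to 2940 in KO LA. Macrophage markers (10 of 10 detected) summed to 109 CPM in WT LA replicate 3 and to 407 to 633 CPM in every other library. Mitochondrial transcripts took 24.1 to 26.7% of the counts in WT LA and 18 to 22.3% in every other library.

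The members did not respond as 1 block. In LA of both mutant labels, most immediate early members had higher means than in WT, but a large part of that came from 2 libraries. In RA, 18 of 26 immediate early members had a positive change in KO and 12 of 26 in Het. Arc, an immediate early gene, was lower than in WT in both atria. In KO against WT LA, 5 of 38 members (13.2%) passed the test (edgeR adjusted p under 0.05), where 7.81% of all 16974 genes tested did. Jund, Maff and Dnaja1 rose (3.42% of all genes passed as higher), and Arc and Hsph1 fell (4.39% passed as lower). In Het against WT LA, 5 of 38 also passed, against 9.4% of all genes. Jund, Myc and Maff rose (4.02% of all genes passed as higher), and Hsph1 and Hspd1 fell (5.38% as lower). In RA, Arc fell in KO and in Het and was the 1 member of 38 (2.63%) to pass in each, where 0.523% and 0.57% of 17201 genes passed. Both mutant labels were set against the same WT libraries, so their fold changes are not independent of each other. In whole atria, fewer cells of a type and less RNA per cell cannot be told apart.

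**Figure D1:**
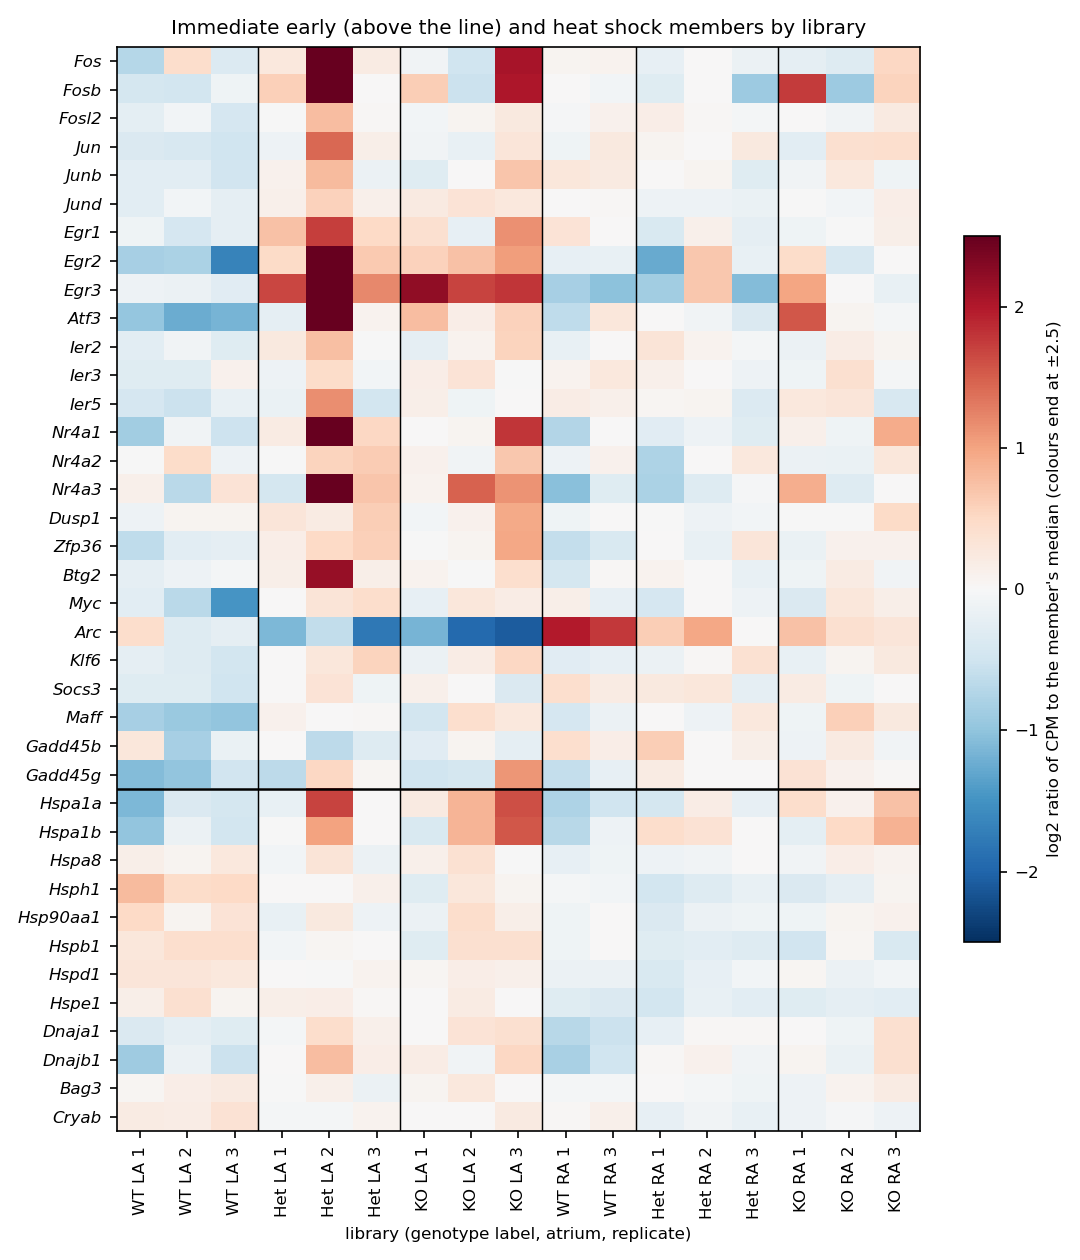
Colour gives the log2 ratio of a member's CPM to its median over the 17 libraries, with members as lines of the grid and libraries as columns, and colours end at ±2.5. Het LA replicate 2 and, less widely, KO LA replicate 3 are red across many immediate early members, Arc is blue in Het and KO LA and red in WT RA, and among the heat shock members Hspa1a, Hspa1b and Dnajb1 span the widest ranges.

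Before the single genes, the libraries that stood apart have to be named. Het LA replicate 2 was over 2-fold above the median of the other LA libraries in 11 of 26 immediate early members and in 2 of 12 heat shock members, where 1.79% of 18018 genes were. It was the highest of the 9 LA libraries in 17 of 26 immediate early members, where 14.1% of all genes had their highest value there. The excess over that median was 18.3-fold for Atf3, 13.3-fold for Fosb, 8.89-fold for Nr4a3, 8.26-fold for Nr4a1, 7.05-fold for Fos and 3.3-fold for Hspa1a. KO LA replicate 3 was over 2-fold above the median of the others in 4 immediate early members (Fos, Fosb, Nr4a1 and Gadd45g) and in Hspa1a and Hspa1b, where 0.905% of all genes were. The right atrium of the same Het animal was over 2-fold above the median of the other RA libraries in 1 immediate early member, Egr3 (2.54 CPM), and had the highest RA level of Egr2 (2.65 CPM). Fos (4.57 CPM) and Atf3 (4.39 CPM) were within the range of the other RA libraries there. In RA, KO replicate 1 was over 2-fold above the median of the other libraries in Egr3, Fosb, Atf3 and Nr4a3. The mean log2 CPM of the 26 immediate early members was 2.80 to 2.86 in the 3 WT LA libraries, 3.28, 4.54 and 3.36 in Het LA replicates 1, 2 and 3, and 3.27, 3.28 and 3.80 in KO LA. In the 8 RA libraries it ran from 3.08 to 3.39. All 6 mutant LA libraries were thus above all 3 WT LA libraries on this mean. What set these libraries apart was not tested, and the LA calls are given with and without them.

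Fos, the founding partner of the AP-1 dimer, had 2.77, 6.23 and 3.63 CPM in WT LA replicates 1, 2 and 3, 5.49, 33.9 and 5.24 in Het LA and 4.3, 3.24 and 19.1 in KO LA. In RA it had 4.79 and 4.88 CPM in WT, 3.98, 4.57 and 4.12 in Het RA and 3.92, 3.66 and 6.58 in KO RA. Only the 2 high LA libraries left the common range, so the fold changes in LA (log2 1.79 ± 1.07 SE in Het, 1.05 ± 1.07 in KO) were no larger than their spread allows (edgeR adjusted p 0.336 and 0.601). Jun, its usual partner, had 25.3, 24.6 and 22.9 CPM in WT LA, 29.6, 87.9 and 36.0 in Het LA and 30.4, 28.5 and 40.1 in KO LA. Every mutant LA library lay above every WT one for Jun, by little except in Het replicate 2, and neither comparison passed (edgeR adjusted p 0.157 and 0.572). RA libraries had 30.3 and 38.6 CPM of Jun in WT, 34.3, 32.5 and 38.7 in Het RA and 27.1, 42.7 and 43.4 in KO RA, with overlapping groups.

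Jund encodes a broadly expressed Jun protein and was the 1 AP-1 gene that passed. Its levels were 19.1, 21.7 and 19.6 CPM in WT LA, 25.0, 34.1 and 24.9 in Het LA and 26.6, 28.9 and 27.2 in KO LA, so neither mutant group overlapped WT. The rise was 0.46 ± 0.12 (log2, SE) in Het and 0.44 ± 0.12 in KO (edgeR adjusted p 0.0356 and 0.0442). RA libraries showed no such step, with 22.8 and 23.4 CPM in WT, 20.8, 21 and 20.3 in Het RA and 22.6, 21.6 and 25.5 in KO RA. Both LA calls depended on the number of libraries: in KO, leaving out any 1 of the 6 libraries ended the call (adjusted p up to 0.11), and in Het this held for WT replicates 1, 2 and 3 and Het replicate 2 (up to 0.112), with the change at 0.29 without the last. The fold change in KO was as large with Het LA replicate 2 out of the fit, a choice made after seeing the data (0.44, adjusted p 0.0156). Jund (chr8:70698949-70700616, plus strand, GRCm38) shares 52.6% of its exon bases with Gm11175 on the opposite strand, which was at 0 CPM in every library. The other AP-1 members were not called in either LA comparison, with log2 changes of 2.82 for Fosb, 0.53 for Fosl2 and 0.62 for Junb in Het, and of 1.41, 0.31 and 0.51 in KO.

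The Egr genes encode zinc finger factors that switch on the next wave of response genes. Egr3 had 1.45, 1.44 and 1.3 CPM in WT LA, 5.05, 24.5 and 3.64 in Het LA and 7.39, 5.12 and 5.46 in KO LA, so the lowest mutant library was above the highest WT library. Its RA levels were 0.891 and 0.776 CPM in WT, 0.876, 2.54 and 0.755 in Het RA and 3.13, 1.59 and 1.39 in KO RA, where KO lay above WT and Het overlapped it. With all libraries, the log2 change was 2.97 ± 0.81 in Het and 2.08 ± 0.82 in KO, and neither passed (edgeR adjusted p 0.064 and 0.169). With both high libraries left out, a choice made after seeing the data, it was 1.64 in Het and 2.15 in KO, and both passed (adjusted p 0.0331 and 0.012). Egr2 had 0.939, 0.959 and 0.519 CPM in WT LA, 2.3, 11.6 and 2.62 in Het LA and 2.47, 2.74 and 3.44 in KO LA. No mutant library overlapped WT, and its change did not pass with all libraries (adjusted p 0.0507 in Het and 0.171 in KO). Without both high libraries it passed, at 1.56 in Het and 1.65 in KO (adjusted p 0.045 and 0.0295). Egr1 had 21.4, 17.2 and 19.8 CPM in WT LA, 38.1, 76.0 and 32.3 in Het LA and 30.3, 20 and 50.9 in KO LA. KO replicate 2 fell inside the WT range, and Egr1 did not pass (adjusted p 0.113 in Het and 0.32 in KO). In RA, Egr1 had 29.1 and 23.0 CPM in WT, 17.7, 25.0 and 19.8 in Het RA and 21.4, 22.9 and 25.5 in KO RA, with no separation.

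Atf3, a stress-induced member of the ATF and CREB family, had 2.39, 1.96 and 2.07 CPM in WT LA, 3.96, 82.0 and 4.93 in Het LA and 7.94, 5.22 and 6.89 in KO LA. All 6 mutant libraries lay above WT, and the 1 library at 82.0 CPM set the spread of the whole fit. With all libraries the log2 change in KO was 1.63 ± 1.41 (edgeR adjusted p 0.528). With Het LA replicate 2 out of the fit, a choice made after seeing the data, it was still 1.63, now at an adjusted p of 0.00368. The library left out is the one that set the spread, so this p-value is no independent support. Right atria had 2.97 and 5.66 CPM of Atf3 in WT, 4.64, 4.39 and 3.63 in Het RA and 13.7, 4.84 and 4.47 in KO RA, where only KO replicate 1 stood out. Nr4a1, an orphan nuclear receptor, had 6.76, 11.6 and 8.62 CPM in WT LA, 14.3, 106 and 17.7 in Het LA and 12.4, 13 and 42.6 in KO LA. Neither mutant group overlapped WT, but its log2 changes of 2.33 ± 0.99 in Het and 1.32 ± 0.98 in KO did not pass (adjusted p 0.194 and 0.465). In RA, Nr4a1 had 7.47 and 12.4 CPM in WT, 10.2, 11.4 and 9.99 in Het RA and 13.6, 11.5 and 23.7 in KO RA. The related Nr4a3 reached 95.6 CPM in Het LA replicate 2 against 5.72 to 25.2 CPM in the other LA libraries, and Nr4a2 stayed between 1.79 and 4.9 CPM in all 17 libraries.

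**Figure D2:**
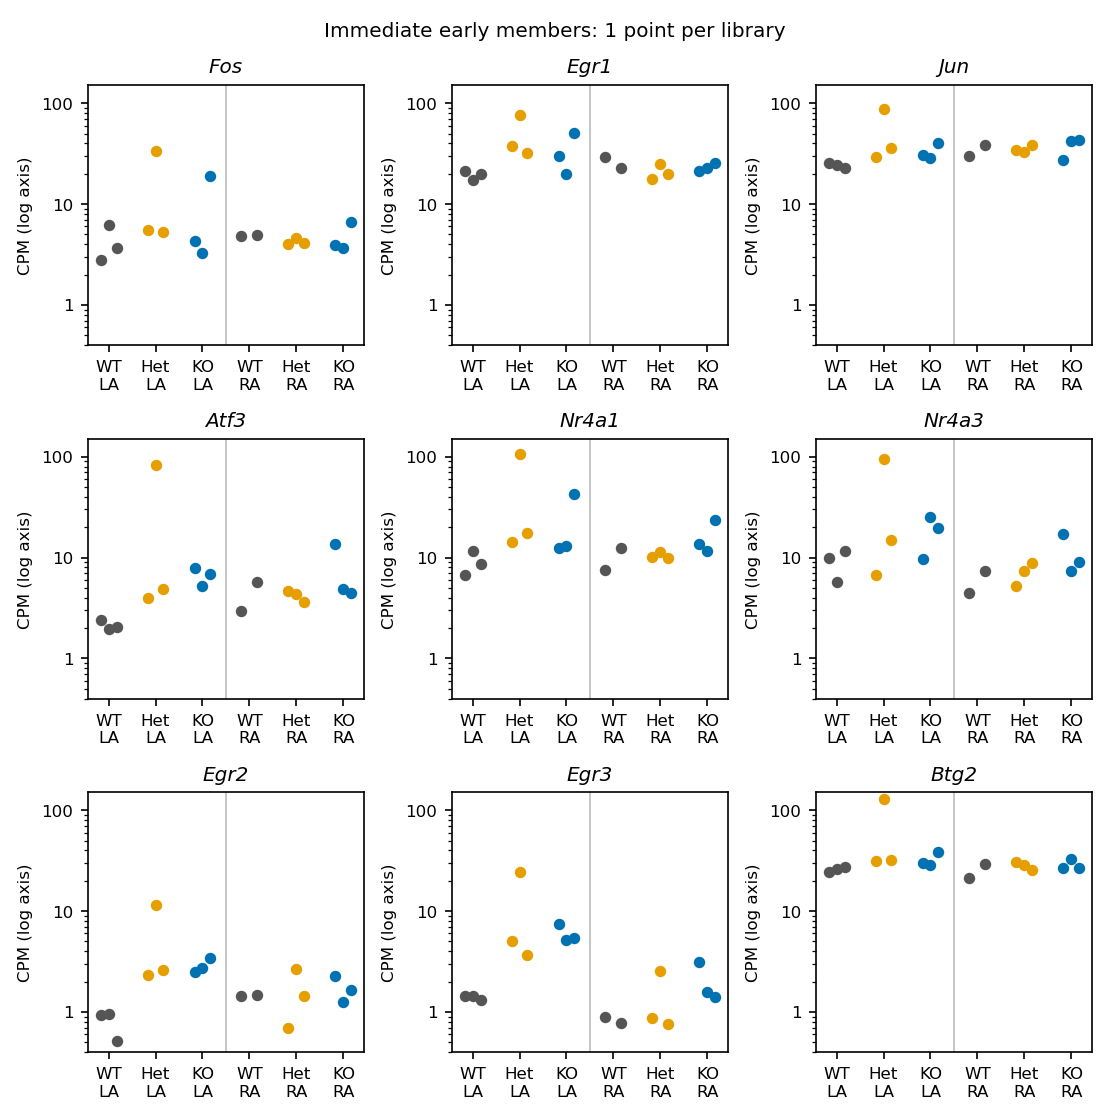
Each point is the CPM of 1 library on a log axis shared by the 9 panels, coloured by genotype label and grouped by atrium. Het LA replicate 2 is the top point of every panel, and Egr2, Egr3 and Atf3 lie above WT in all 6 mutant LA libraries.

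Maff, a small Maf protein that pairs with other leucine zipper factors, had 3.71, 3.47 and 3.31 CPM in WT LA, 7.08, 6.58 and 6.72 in Het LA and 4.78, 8.83 and 7.88 in KO LA. It rose by log2 0.94 ± 0.21 in Het and 1.02 ± 0.2 in KO (edgeR adjusted p 0.0202 and 0.0182), and here the 2 high libraries were not the highest of their groups. RA levels were 4.92 and 5.93 CPM in WT, 6.61, 6.01 and 7.93 in Het RA and 6.13, 9.95 and 7.83 in KO RA, again without overlap, but the changes did not pass (adjusted p 0.489 and 0.237). The rise in KO LA held in 14 of 17 alternatives and was lost when WT replicate 2, KO replicate 3 or both high libraries were removed (adjusted p up to 0.082). The rise in Het LA was lost without WT replicate 2 or any 1 of the Het replicates (adjusted p up to 0.062). Myc, a driver of growth and ribosome production, had 2.39, 1.81 and 1.04 CPM in WT LA, 2.88, 3.59 and 3.9 in Het LA and 2.51, 3.5 and 3.26 in KO LA. It rose in Het by 0.94 ± 0.27 (adjusted p 0.0482), a call that ended without any 1 of the 6 libraries other than WT replicate 1 (up to 0.133), and its change of 0.79 ± 0.26 in KO did not pass (0.089). Right atria had 3.18 and 2.51 CPM of Myc in WT, 2.15, 2.91 and 2.64 in Het RA and 2.25, 3.49 and 3.19 in KO RA, with overlap throughout. Klf6, a zinc finger factor with the highest level per kilobase among the immediate early members, had log2 changes of 0.61 in Het LA and 0.53 in KO LA (adjusted p 0.0787 and 0.126).

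Several members brake signalling, growth or RNA stability, and none of them was called between genotypes. Zfp36, which speeds decay of AU-rich messages, had log2 changes of 0.79 in Het LA and 0.78 in KO LA, with no overlap with WT in either atrium, and no call (edgeR adjusted p 0.115 and 0.127 in LA, 0.125 and 0.138 in RA). Dusp1, a phosphatase of MAP kinases, had 0.36 and 0.39 in LA, and Btg2, an antiproliferative factor, 1.29 and 0.31, with 129 CPM in Het LA replicate 2 against 24.4 to 38.4 CPM in the other LA libraries. Socs3, an inhibitor of cytokine receptor signalling, had 5.63, 5.57 and 4.86 CPM in WT LA, 6.91, 8.7 and 6.42 in Het LA and 7.56, 6.91 and 5.4 in KO LA. In RA it had 9.25 and 7.94 CPM in WT, 8.14, 8.41 and 5.95 in Het RA and 7.98, 6.43 and 6.95 in KO RA, and it passed in neither genotype comparison. Gadd45b was near 0 change in both LA comparisons (log2 -0.13 and 0.03), and Gadd45g had 0.86 and 1.09 without passing. Ier2, Ier3 and Ier5 ran between 0.26 and 0.73 in LA, none of them called.

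Arc, best known as an activity-regulated gene of neurons whose product forms capsid-like particles, was the 1 immediate early member called lower than WT. Its levels were 4.79, 2.84 and 3.05 CPM in WT LA, 1.63, 2.3 and 1.03 in Het LA and 1.58, 0.926 and 0.837 in KO LA. In RA they were 14.0 and 12.1 CPM in WT, 5.44, 6.9 and 3.54 in Het RA and 5.91, 4.7 and 4.37 in KO RA. No mutant library reached the WT range of its atrium, and every RA library was above every LA library of its own genotype. Arc fell in KO LA by 1.69 ± 0.34 on the log2 scale, in KO RA by 1.38 ± 0.23 and in Het RA by 1.31 ± 0.23 (edgeR adjusted p 0.0183, 0.0352 and 0.0461). Its change of -1.09 ± 0.33 in Het LA did not pass (0.056). In KO LA the call was lost when KO replicate 2, KO replicate 3 or both high libraries were removed (adjusted p 0.0546, 0.0766 and 0.0677). In RA, with 2 WT libraries, leaving out any 1 of the 5 libraries ended the KO call (adjusted p up to 0.295), and in Het 3 of 5 did, WT replicates 1 and 3 and Het replicate 1 (up to 0.401). Arc was read from 20 to 331 counts per library, in chr15:74669083-74672570 (minus strand, GRCm38). Neuronal and Schwann cell markers (4 of 4 detected) were also higher in RA, with sums of 25.6 to 33.3 CPM against 7.34 to 15.0 CPM in LA, but were 7.34 to 9.62 CPM in WT LA and 10.4 to 15.0 CPM in mutant LA, the opposite order to Arc. Their part in the level of Arc was not tested.

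The inducible Hsp70 genes Hspa1a and Hspa1b, the classical targets of heat shock factor 1, were among the 5 lowest members per kilobase, at 0.518 and 0.898 CPM per kilobase on average. Hspa1a had 0.563, 0.959 and 0.908 CPM in WT LA, 1.08, 3.99 and 1.23 in Het LA and 1.44, 2.21 and 3.75 in KO LA. Hspa1b had 1.03, 1.84 and 1.49 CPM in WT LA, 2.03, 4.13 and 2.05 in Het LA and 1.58, 3.7 and 5.99 in KO LA. The highest values of both were again in Het LA replicate 2 and KO LA replicate 3, and the log2 changes of Hspa1a (1.37 in Het and 1.6 in KO) and Hspa1b (0.89 and 1.35) did not pass (edgeR adjusted p 0.136 to 0.306). In RA, Hspa1a had 0.721 and 0.867 CPM in WT, 0.913, 1.4 and 1.07 in Het RA and 1.67, 1.32 and 2.03 in KO RA. Hspa1b had 1.27 and 1.87 CPM in WT RA, 2.78, 2.62 and 2.06 in Het RA and 1.72, 2.88 and 3.76 in KO RA. Hspa1a was above WT in all 6 mutant RA libraries, without a call (adjusted p 0.517 in Het and 0.141 in KO). The 2 genes are 99.2% identical over 2201 bases, so the split of reads between them is uncertain.

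Their J-domain partners, which hand substrates to Hsp70, had higher means in every mutant group than in WT. Dnaja1 had 53.4, 58.7 and 55.8 CPM in WT LA, 66.1, 92.6 and 75.1 in Het LA and 69.4, 87.2 and 90.8 in KO LA. In RA it had 42.5 and 47.4 CPM in WT, 59.8, 69.7 and 69.7 in Het RA and 68.5, 63.9 and 90.6 in KO RA, so no mutant library overlapped WT in either atrium. It rose in KO LA by log2 0.55 ± 0.13 (edgeR adjusted p 0.0365), while the changes in Het LA (0.46 ± 0.13), KO RA (0.74 ± 0.14) and Het RA (0.57 ± 0.14) missed the threshold (0.0534, 0.0567 and 0.112). The KO LA call survived the loss of 1 of 6 single libraries (KO replicate 1, the animal with high Xist) and was lost without any of the others (up to 0.107). Dnajb1 had 13.1, 22.0 and 16.9 CPM in WT LA, 24.4, 41.4 and 27.3 in Het LA and 27.9, 23.0 and 35.1 in KO LA. In RA it had 14.0 and 17.2 CPM in WT, 25.0, 26.4 and 23.0 in Het RA and 25.6, 21.8 and 32.0 in KO RA. The 12 mutant libraries were all above the WT libraries of their atrium, with log2 changes of 0.67 to 0.83 that did not pass (adjusted p 0.0568 to 0.146). When the identical WT RA columns were counted as 2 libraries, Dnaja1 and Dnajb1 passed in both RA comparisons (adjusted p 0.00958 to 0.0234), which shows how near the threshold they lie but counts the same library 2 times.

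Hsph1 (Hsp110), a nucleotide exchange factor of Hsp70, went the other way in LA. It had 155, 124 and 127 CPM in WT LA, 90.6, 90 and 98.9 in Het LA and 73.1, 109 and 94.4 in KO LA, without overlap. It fell by 0.55 ± 0.14 on the log2 scale in Het and by 0.57 ± 0.14 in KO (edgeR adjusted p 0.0361 and 0.0378). RA levels were 86.5 and 85.5 CPM in WT, 65.9, 71.6 and 79.4 in Het RA and 69.6, 76.9 and 94.3 in KO RA, with no call between genotypes. The LA falls were fragile: each of the 6 left-out libraries ended the Het call, 5 of 6 ended the KO call (adjusted p up to 0.126 and 0.108), and both were lost when libraries were scaled by their totals alone (0.0958 and 0.0643). The summed cardiomyocyte markers and the mitochondrial share were also highest in WT LA, as given above, and their part in this result was not tested. Hspa8, the constitutive Hsp70, had 816, 781 and 894 CPM in WT LA, 707, 927 and 666 in Het LA and 811, 971 and 741 in KO LA. In RA it had 642 and 689 CPM in WT, 676, 699 and 742 in Het RA and 699, 827 and 787 in KO RA, with log2 changes between -0.13 and 0.22 over the 4 comparisons with WT, none called. Hsp90aa1, the inducible cytosolic Hsp90, had 321, 238 and 285 CPM in WT LA, 198, 268 and 208 in Het LA and 204, 305 and 251 in KO LA, with overlap and no call. Its RA levels were 210 and 226 CPM in WT, 177, 204 and 209 in Het RA and 209, 237 and 242 in KO RA.

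Hspd1 (Hsp60) and Hspe1 (Hsp10) form the folding chamber of the mitochondrial matrix. Hspd1 had 301, 299 and 292 CPM in WT LA, 243, 242 and 257 in Het LA and 251, 272 and 265 in KO LA, and 221 and 220 CPM in WT RA. The mutant RA libraries had 186, 211 and 232 CPM in Het and 253, 220 and 231 in KO. It fell in Het LA by 0.28 ± 0.06 on the log2 scale (edgeR adjusted p 0.0235), and its change of -0.19 ± 0.06 in KO LA did not pass (0.091). The Het call was lost with libraries scaled by their totals (adjusted p 0.65) and without WT replicate 2 or 3 or Het replicate 1 or 2 (up to 0.0963). Hspe1 had 62.1, 74.0 and 58.9 CPM in WT LA, 62.1, 62.9 and 56.9 in Het LA and 56.1, 64.5 and 56.6 in KO LA, with overlap. Its RA levels were 45.5 and 43.5 CPM in WT, 41.0, 49.3 and 46.5 in Het RA and 45.4, 47.7 and 46.9 in KO RA, all below every LA library. The 2 genes overlap by 112 exon bases on opposite strands.

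Cryab, the small heat shock protein that guards desmin and other filaments in heart muscle, had the highest level per kilobase of all members (530 CPM per kilobase on average). It had 885, 874 and 988 CPM in WT LA, 742, 745 and 820 in Het LA and 774, 768 and 892 in KO LA. In RA it had 780 and 833 CPM in WT, 666, 721 and 677 in Het RA and 705, 748 and 699 in KO RA. Only KO LA replicate 3 reached the WT range of its atrium, but the changes of -0.27 and -0.18 in LA and of -0.22 and -0.16 in RA for Het and KO did not pass (edgeR adjusted p 0.0808, 0.224, 0.21 and 0.356). Hspb1 (Hsp25) had 79.9, 88.2 and 87.5 CPM in WT LA, 62.7, 68.2 and 65.9 in Het LA and 53.2, 86.0 and 86.5 in KO LA. Its KO libraries were split, with replicate 1 at the lowest LA level and the other two within the WT range, and it was not called. In RA, Hspb1 had 61.2 and 65.6 CPM in WT, 53.3, 54.7 and 52.5 in Het RA and 47.4, 67.6 and 50.7 in KO RA. In LA, the libraries with high Xist had 53.2 to 68.2 CPM of Hspb1 and those with low Xist 79.9 to 88.2. In RA, the libraries with high Xist had 47.4 to 54.7 CPM, and KO replicate 3, with low Xist, had 50.7. The part of what goes with Xist in the level of Hspb1 was not tested. Bag3, the cochaperone that feeds damaged filament proteins to autophagy, had 139, 151 and 158 CPM in WT LA, 134, 148 and 122 in Het LA and 141, 161 and 135 in KO LA. Its RA levels were 130.0 and 130.0 CPM in WT, 135, 130.0 and 126 in Het RA and 123, 143 and 155 in KO RA, and no genotype comparison was called.

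**Figure D3:**
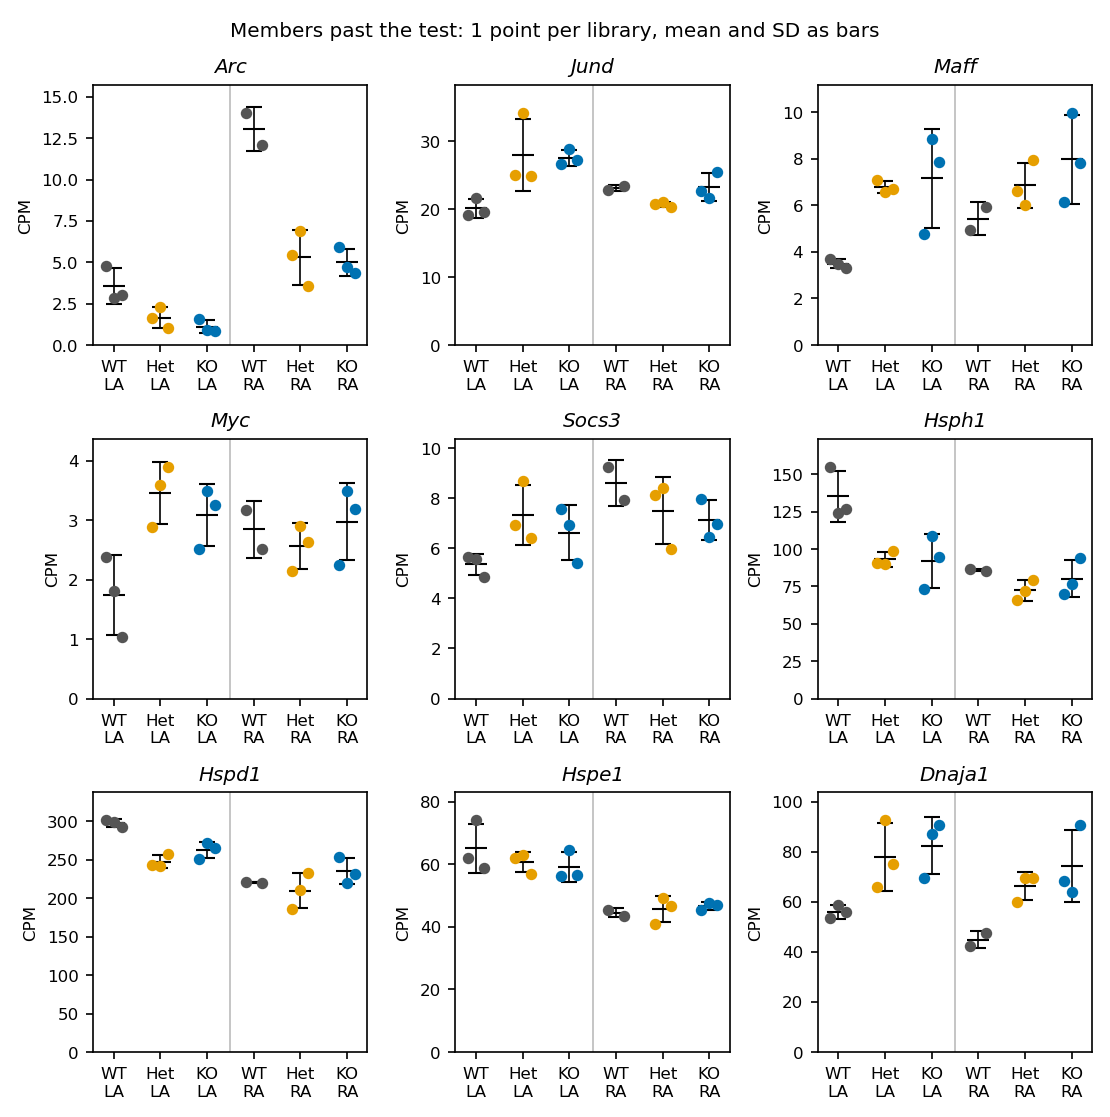
Each point is the CPM of 1 library on a linear axis from 0, with the mean and SD of each group as bars (n = 3, WT RA n = 2). Arc is lower in Het and KO than in WT in both atria and higher in RA, Maff and Dnaja1 are above WT in all mutant LA libraries, and Hspe1 is lower in every RA library than in any LA library.

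By class, 25 of 26 immediate early members had a positive fold change in KO against WT LA (median log2 0.52), and 24 of 26 in Het against WT LA (median 0.83), while the median of all genes tested was -0.002 and -0.003. Of the 12 heat shock members, 5 were positive in KO LA (median -0.10) and 4 in Het LA (median -0.14). Libraries did not overlap between groups for 19 of 38 members in KO LA, where 30% of all genes did not overlap, and for 27 of 38 in Het LA, where 32.3% did not. In RA the classes were close to no change, with immediate early medians of 0.14 in KO and -0.01 in Het and heat shock medians of 0.11 and 0.03. There, 11 of 38 members did not overlap in KO (37.0% of all genes) and 17 of 38 in Het (33.2%). The share of all genes that passed as higher or lower in RA was 0.238% and 0.285% in KO, and 0.256% and 0.314% in Het. With both high LA libraries left out, a choice made after seeing the data, 3 members were called in KO LA (Egr2, Egr3 and Atf3). In Het LA 2 were called (Egr2 and Egr3), where 1.09% (KO) and 0.797% (Het) of 17179 genes passed. None of them was among the 5 called with all libraries. Those 5 then had edgeR adjusted p-values of 0.0514 to 0.143 in KO LA (Jund lowest, Hsph1 highest) and of 0.0905 to 0.185 in Het LA (Maff lowest, Hsph1 highest). With only Het LA replicate 2 out of the fit, also chosen after seeing the data, 8 members were called in KO LA. Jund, Egr2, Egr3, Atf3, Maff, Hspa1a and Dnaja1 were higher and Arc lower, where 6.69% of 17358 genes passed. Scaling by library totals moved the median of all genes by 0.18 in KO LA and 0.24 in Het LA, and the split of members from 3 higher and 2 lower to 6 higher and 1 lower in KO LA, and to 13 higher and 0 lower in Het LA, where 17.6% and 26.7% of all genes then passed. With Xist as a covariate, Maff, Dnaja1 and Hspa1b were higher and Arc and Hsph1 lower in KO LA (3.23% of all genes passed). With that covariate 0 members were called in Het LA, KO RA or Het RA, where 0.0%, 0.157% and 0.0% of all genes passed. Xist was high in every Het library and in no WT library. For Het against WT this fit therefore barely separates the label from Xist, and its lost calls decide nothing.

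**Figure D4:**
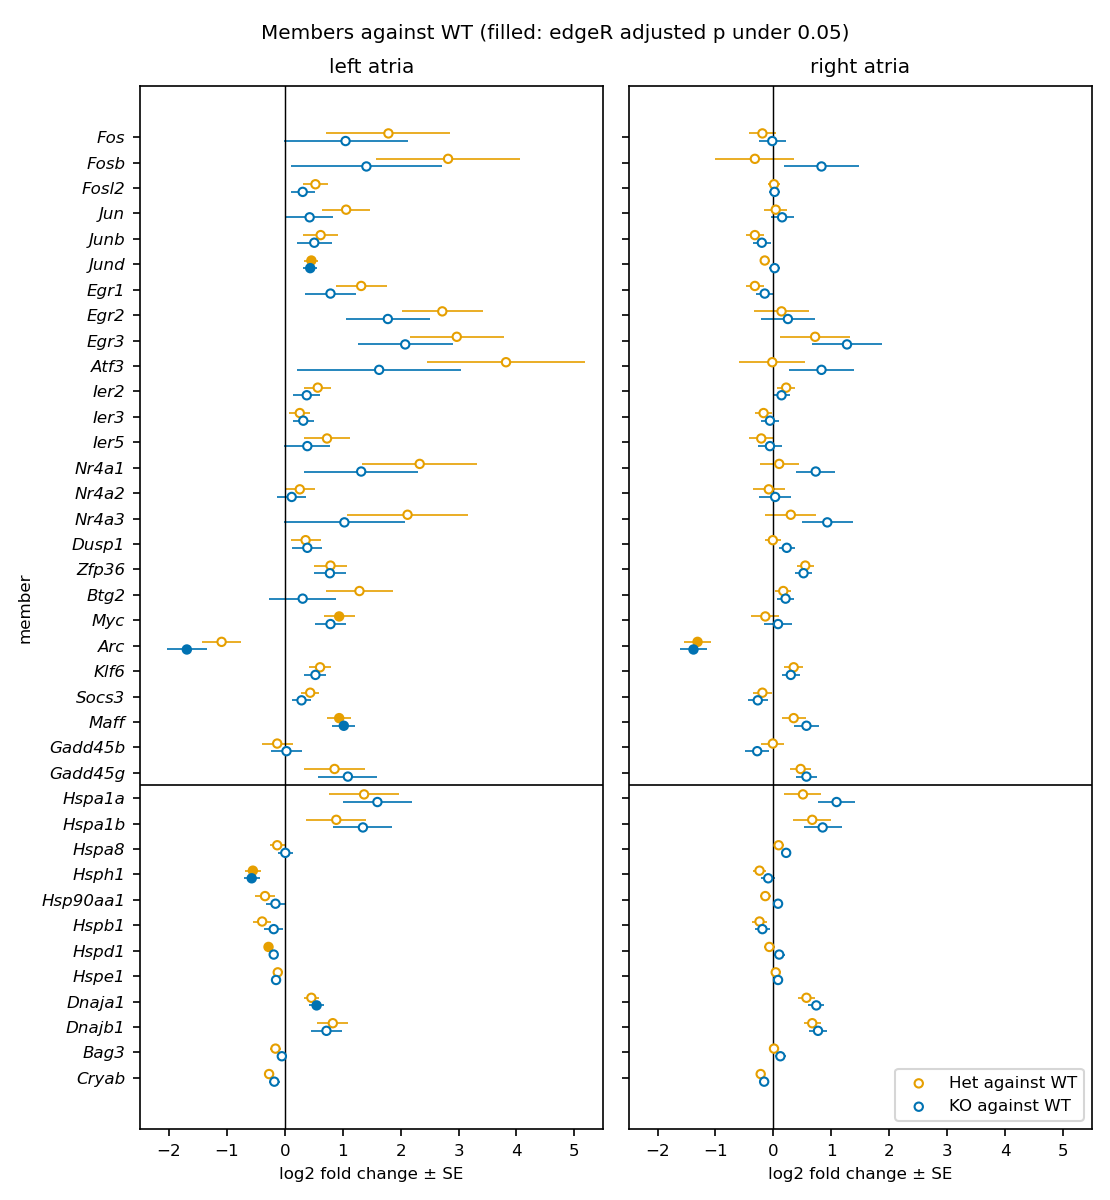
Points give the log2 fold change of each member against WT and lines its SE, for Het and KO in LA (left panel) and RA (right panel), filled where the edgeR adjusted p is under 0.05. In LA the immediate early members lie to the right of 0 except Arc and, in Het, Gadd45b, with wide errors for Fos, Fosb, Atf3 and Nr4a3, and in RA most lie near 0.

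KO and Het did not differ in any member by edgeR (0 of 38 in LA and 0 of 38 in RA, where 0.0% of all genes passed). At an unadjusted p under 0.05 the count was 0 in LA and 2 in RA, and DESeq2 and limma-voom also called 0. The median log2 difference of KO from Het was -0.21 for immediate early members in LA and 0.11 in RA, and the LA difference for Atf3 alone was -2.19 ± 1.18, so the error of that difference is wide.

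Right and left atria of the same genotype were then compared. In WT, 5 of 38 members (13.2%) passed, where 11.9% of 18018 genes did, with Arc and Socs3 higher in RA (5.31% of all genes) and Hsph1, Hspd1 and Hspe1 lower (6.56%). Arc was higher in RA in every genotype, by log2 1.88 ± 0.31 for WT, 1.64 ± 0.3 for Het and 2.16 ± 0.32 for KO (edgeR adjusted p 0.000833, 0.00247 and 0.000302), and each of these calls held in all 14 or 15 alternatives run. Hspe1 was lower in RA in all genotypes: on the log2 scale, WT changed by -0.55 ± 0.1, Het by -0.41 ± 0.09 and KO by -0.34 ± 0.09 (edgeR adjusted p 0.00159, 0.00566 and 0.0199). Its calls held in every alternative in WT and Het, and the KO call was lost without KO RA replicate 1, KO LA replicate 2 or KO RA replicate 3 (adjusted p up to 0.115). Hspd1 was lower in WT RA, with a log2 change of -0.43 ± 0.08 (adjusted p 0.00284) that passed in all 14 alternatives. Hsph1 changed by -0.66 ± 0.15 (0.0125), which was lost without either WT RA library (up to 0.11). Socs3 was higher in WT RA by 0.68 ± 0.18 (adjusted p 0.0233), and was lost without WT LA replicate 3 or either WT RA library (up to 0.239).

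In Het, 4 of 38 members (10.5%) passed, against 7.69% of all genes, Arc higher (3.32%) and Jund, Egr3 and Hspe1 lower in RA (4.37%). The difference in Egr3 was -3.03 ± 0.69 with all libraries (adjusted p 0.0176) and -1.67 without Het LA replicate 2 (0.0289), and it did not pass without Het RA replicate 1 or 3 (0.0781 and 0.0785). That in Jund (-0.44 ± 0.1) was lost without this library (0.0829). In KO, 2 of 38 (5.26%) passed, Arc (3.66% of all genes were higher) and Hspe1 (4.68% lower), against 8.35% of all genes. Left and right libraries of 1 animal deviate together from their group means, so the animal was also fitted as a block. With this block, 10 members were called in WT, 14 in Het and 5 in KO, where 18.6%, 16.3% and 15.9% of all genes were, and they included all 5, 4 and 2 named above. Added were Myc and Maff (higher in RA) and Hspa8, Hsp90aa1 and Hspb1 (lower) in WT. In Het they were Gadd45b (higher) and Egr1, Egr2, Nr4a2, Dusp1, Klf6, Hsph1, Hspb1, Hspd1 and Dnajb1 (lower), and in KO Egr2, Egr3 and Hspb1 (lower). Egr3 in KO changed by -1.6 with the block (adjusted p 6.42e-06). With the identical WT RA library set to animal 2 instead, the counts were 9, 12 and 4: Hspa8 and Hsp90aa1 in WT, Egr1 and Dnajb1 in Het and Egr2 in KO were no longer called, and Gadd45b was called in WT. Cardiomyocyte marker sums were also lower in RA than in LA of each genotype, and their part in the lower Hspe1 and Hspd1 was not tested.

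Whether the genotype difference itself differed between atria was tested as an interaction. Without the animal in the model, no member and no gene passed by edgeR (0 of 38, and 0.0% of all genes, for KO and for Het), with 4 and 7 members at an unadjusted p under 0.05 and 0 members by DESeq2 and limma-voom. The smallest of these in Het was Jund, whose change in RA minus that in LA was -0.63 ± 0.16 (unadjusted p 0.000881, edgeR adjusted p 1.0). Of the 26 immediate early members, 1 had a positive interaction in KO and 1 in Het (medians -0.46 and -0.81, against -0.01 for all genes in both). With the animal as a block, 0 members were called, and 0.0444% of all genes passed for KO and 0.117% for Het. The nearest members in Het were then Egr2 and Egr3 (both adjusted p 0.0638) and Jund (0.0702). With the identical library as animal 2, Egr2 (-2.55), Egr3 (-2.12) and Myc (-1.41) were called in Het, with a smaller change in RA than in LA (adjusted p 0.0278, 0.024 and 0.0265), so the answer for these 3 rests on which animal that library came from. For Arc the change in RA minus that in LA was 0.29 ± 0.44 in KO and -0.23 ± 0.44 in Het.

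Other genes of the same pathways were followed from a second list. Of 39 further immediate early genes tested in LA, 1 was higher and 1 lower in KO (Gadd45a, which fell by 0.92 ± 0.19 on the log2 scale, edgeR adjusted p 0.022), and 6 were higher and 1 lower in Het, where 3.42% and 4.02% of all genes passed as higher and 4.39% and 5.38% as lower in KO and Het. The call of Gadd45a was lost without WT replicate 2, KO replicate 3 or both high libraries (up to 0.078). Of 9 upstream regulators, 1 was higher in KO LA, 3 in Het LA, 1 in KO RA and 1 in Het RA, and 0 were lower. Of all genes, 3.42%, 4.02%, 0.238% and 0.256% passed as higher there. Creb1, which encodes the factor that binds the cyclic AMP response element, was higher in all 4 comparisons with WT. It rose from 43.6 ± 3.82 CPM (SD, n = 3) in WT LA to 63.0 ± 4.13 in Het LA and 66.9 ± 4.8 in KO LA (adjusted p 0.00836 and 0.00647). In RA it rose from 49.8 ± 2.01 CPM (n = 2) to 68.4 ± 7.04 in Het and 74.5 ± 2.09 in KO (adjusted p 0.0489 and 0.0192). The KO LA call of Creb1 held in all 17 alternatives. The Het LA call was lost with Xist as a covariate (0.24) and without both high libraries (0.0588). That covariate is barely separable from the Het label, and 0.0% of all genes passed with it. In RA the KO call was lost with Xist as a covariate (0.0566) and without either WT library, KO replicate 1 or KO replicate 3 (up to 0.312). The Het RA call was lost in 9 of 15 alternatives. Among them was Xist as a covariate (0.804), where again 0.0% of all genes passed. The others included the removal of either WT library, Het replicate 2 or Het replicate 3 (up to 0.521). Of 47 further chaperone and stress genes, 1 was higher and 5 lower in KO LA, and 0 were higher and 8 lower in Het LA, against the same shares of all genes. Hspb8, the small heat shock partner of Bag3, fell by 0.33 ± 0.08 in KO LA and by 0.37 ± 0.08 in Het LA (adjusted p 0.031 and 0.0193). Both calls were lost with library totals alone (0.191 and 0.24) and without both high libraries (0.131 and 0.0865), and 4 of 6 single libraries ended each: WT replicates 2 and 3 and KO replicates 1 and 3 in KO (up to 0.107), WT replicate 3 and each Het replicate in Het (up to 0.0618). Between atria, Phlda1 and Hspb6 were lower in RA in all genotypes, with Phlda1 at 5.68 ± 1.14 CPM in WT LA and 1.79 ± 0.185 in WT RA (adjusted p 0.000844).

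Some pairs of members varied together across animals and others did not, with the genotype groups and the 2 high libraries among the points. Over the 9 LA libraries, 8 pairs were examined with two-sided exact permutation tests, adjusted over the 8. Hspa1a and Dnajb1 had r = 0.88 (exact permutation p 0.00191, adjusted 0.00702) and rho = 0.90 (p 0.00203, adjusted 0.0123). Their r was 0.73 without the 2 libraries farthest from the median and 0.82 over deviations from the genotype means. Fos and Egr1 had r = 0.86 (exact permutation p 0.00344, adjusted 0.00702) and rho = 0.58 (p 0.108, adjusted 0.123), and r = 0.34 without the 2 farthest libraries. Fos and Jun had r = 0.88 (exact permutation p 0.00351, adjusted 0.00702) and rho = 0.62 (p 0.0857, adjusted 0.123), and r = 0.32 without them. Both of these relations rest on those libraries. Hsph1 and Hspa8 had r = 0.19 and rho = 0.18 (exact permutation adjusted p 0.633 and 0.644), and r = 0.31 without the 2 farthest. Hspa1a and Hsph1 had r = -0.59 and rho = -0.73 (exact permutation adjusted p 0.109 and 0.083), and r = -0.63 without the 2 farthest and 0.02 over deviations from genotype means. Hsph1 and Hsp90aa1 had r = 0.71 and rho = 0.67 (exact permutation adjusted p 0.0449 and 0.118), and r = 0.42 without the 2 farthest. Fos and Hspa1a had r = 0.81 and rho = 0.58 (exact permutation adjusted p 0.0176 and 0.123), and r = 0.11 without them. Hspa1a and Hspa1b, whose near-identical sequence leaves the split of reads uncertain, had r = 0.94 and rho = 0.88 (exact permutation adjusted p 0.00346 and 0.0123), and r = 0.89 without them.

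Left and right levels of the same animal could be set side by side for 7 animals. None of the 18018 genes passed the adjustment (exact permutation), members included. At an unadjusted p under 0.05 were 4 of 26 immediate early members (15.4%), 3 of 12 heat shock members (25%) and 19.1% of all genes. The median r was 0.3 for immediate early members, 0.67 for heat shock members and 0.45 for all genes. Klf6 had r = 0.93 and rho = 0.96 (exact permutation adjusted p 0.121 and 0.154), and r = 0.96 without the 2 farthest animals. Fos had r = 0.59 and rho = 0.54 (exact permutation adjusted p 0.413 and 0.556), and r = -0.03 without them.

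Some counts are uncertain by their sequence, since no source used here gives the counting rule or its strand. Processed copies with over 95% identity and reads of their own exist for Hspa8 (5 copies, the highest at 8.23 CPM), Hsp90aa1, Hspb1, Hspd1 and Hspe1. Exons also overlap genes on the other strand for Junb (7.52% of bases, Prdx2), Jun (7.28%, Junos), Dnaja1 (7.05%, Smu1) and Cryab (17%, Hspb2).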

How the data were processed

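The deposited table held raw counts per Ensembl gene ID for 18 libraries of whole atria. Per the labels' protocols, RNA was column-purified, mRNA libraries were made with a KAPA HyperPrep kit and sequenced on a NovaSeq. Per the submitters' processing notes, the tools were STAR 2.7.9a and DESeq2 1.30.1 and the genome mm10, and the annotation release and counting rule are not named. Symbols came from GENCODE M21 by base ID (52073 of 56691 IDs), and per-kilobase levels used its exon bases. The WT RA columns of replicates 1 and 2 were identical and entered once. That library was paired with animal 1, or with animal 2 as an alternative.

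Genes with enough counts by edgeR's filterByExpr (minimum count 10) were scaled by TMM and tested with edgeR 4.0.16's quasi-likelihood F test in R 4.3.3, with Benjamini-Hochberg adjustment over all genes tested and a call at an adjusted p under 0.05. LA, RA and both atria were fitted separately, each with its 3 genotypes. Fold changes were those of the edgeR fit, and log2 CPM values used a prior count of 2. The code was tested on simulated data. Alternatives were DESeq2 1.42.0, limma 3.58.1 (voom), other scalings, filters and libraries, blocks, and Xist as a covariate. Left and right deviations of 1 animal correlated at 0.213 to 0.411 in the 7 animals whose libraries are both identified by the animal numbers in the labels. The identical WT RA library correlated at 0.158 with WT LA replicate 1 and at 0.12 with replicate 2. With 2 WT RA libraries, their deviations mirror each other, so the WT values are not independent. Exact permutation p-values were computed over all pairings with numpy 2.4.6, and ranks with scipy 1.17.1.

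Every member could be named. Values in every library were given for members called in any comparison and for 15 set by name, plus Egr2, Nr4a3 and Btg2 in part, which were added after their values were seen. Other pathway genes were named if called, at most 6 per comparison. The members, lists and tests were chosen with earlier results of these data known. Batches are not recorded, so p-values measure the spread between these animals.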

Additional observations from a re-analysis of the deposited data

How the results depend on the processing

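The number of members called moved with the processing, and the cause was not tested. No call of a member changed direction under any alternative run. In KO against WT LA (5 called), DESeq2 gave 13, no filter on low counts 9, removal of both high LA libraries 3 and of Het LA replicate 2 from the fit 8, the last 2 chosen after seeing the data; leaving out 1 library gave 0 to 3. In Het against WT LA (5), DESeq2 gave 15, library totals alone 13, no filter 12, all libraries in 1 fit 15, Xist as a covariate 0, removal of both high libraries 2, and leaving out 1 library 0 to 3. The share of all genes called moved too: in KO LA it was 7.81%, and 10.6% by DESeq2 and 6.98% with no filter, and in Het LA 9.4%, and 12.6% by DESeq2, 26.7% with library totals, 8.28% with no filter and 13.3% with all libraries. With Xist as a covariate it was 0.0% in Het LA, a fit that barely separates Xist from the Het label. In KO against WT RA (1), DESeq2 and library totals each gave 3, no filter 7, the identical columns as 2 libraries 6, only the 2 groups 2, Xist 0, and leaving out 1 library 0 to 2. In Het against WT RA (1), DESeq2, library totals and the identical columns each gave 4, no filter 5, only the 2 groups 2, all libraries in 1 fit 0, Xist 0, and leaving out 1 library 0 to 1. The share of all genes in Het RA was 0.57%, and 2.11% by DESeq2, 1.28% with library totals, 4.4% with the identical columns and 2.69% with no filter.

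Between atria, WT (5) had 8 with library totals, 16 with no filter, 8 with the identical columns as 2, and 3 to 5 when 1 library was left out. Het (4) had 10 by DESeq2, 21 with no filter and 3 to 7 when 1 was left out, and KO (2) had 10 with no filter and 1 to 3. With the animal as replicate block the counts were 10, 14 and 5, or 9, 12 and 4 with the identical library as animal 2. The interaction (0 called) gave 3 for KO and 13 for Het with no filter, and 3 for Het with the animal block and the identical library as animal 2.

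Genotypes share replicate numbers that do not pair animals: with that replicate block, 5 and 7 members were called in KO and Het LA, and 2 and 2 in RA. Library totals moved the share of higher calls among all genes from 43.8 to 91.3% in KO LA, from 42.7 to 94.8% in Het LA, from 45.6 to 61.2% in KO RA, from 44.9 to 78.7% in Het RA, from 44.7 to 83.7% between WT atria and from 43.2 to 53.3% between Het atria. Depth limits the members with the lowest counts, Egr2 with 8 in 1 library among them.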
